A study of Mus musculus with 2 samples.

Results

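The genes described here were 9 regulators of dorsoventral position in the spinal cord, Foxa2, Shh, Nkx6-1, Nkx6-2, Pax6, Msx1, Zic1, Irx3 and Olig2, and they were followed in single ependymal cells. They were chosen by name from a list of embryonic patterning genes, of 24071 genes with counts in the series. The choice was made with earlier results of these data known. The genes were read in the ependymal-like cells of both libraries, and in those cells with and without RNA of Ucma. Ucma encodes a secreted matrix protein. The animals were adult C57BL/6j mice, aged 10 to 12 weeks, all of the genotype Clec9acre/cre R26LSLtdTomato/LSLtdTomato. Clec9a encodes DNGR-1, a receptor of dendritic cells, and in these mice both its alleles drive Cre recombinase, so that cells with a history of Clec9a expression make the red protein tdTomato. Live spinal cord cells without the leukocyte protein CD45 and with the surface protein CD133 were sorted into a CD133+ DNGR-1 traced fraction, which was red, and a CD133+ non-traced fraction, which was not. Both fractions carry Cre at both Clec9a alleles, the red label shows past as well as present activity of that promoter, and a non-traced cell may belong to the same lineage without having recombined. Each fraction was 1 library, and the number of animals behind it is not given in the sources used here, so every value describes these 2 libraries and none has a replicate check.

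Along the embryonic neural tube, the notochord and floor plate release Sonic hedgehog, encoded by Shh, from the ventral side, while the roof plate releases BMP and Wnt proteins from the dorsal side. Progenitors read these gradients by switching on transcription factors in stacked domains. Foxa2 marks the floor plate, Olig2 the motor neuron domain, Nkx6-1 and Nkx6-2 the ventral domains, Pax6 and Irx3 the intermediate ones, and Msx1 and Zic1 the dorsal ones. The ependymal cells that line the adult central canal descend from these progenitors, and cells of the ventral and dorsal midline are known to differ from those of the lateral wall.

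There were 25411 non-traced cells, at a median depth of 7218 UMIs (unique molecular identifiers, 1 for each captured RNA molecule), and 4825 traced cells, at a median depth of 8566 UMIs. Cells were named from marker genes after clustering without the 9 genes and Ucma. Of the non-traced cells, 1161 were ependymal-like (4.57%, interval 4.32 to 4.83), and of the traced cells 4652 were (96.4%, interval 95.9 to 96.9). All 10 ependymal markers, among them the cilia regulator Foxj1, were found in at least 50% of the ependymal-like cells of both libraries, with summed levels of 10672 and 9957 UMIs per 1e6 UMIs of the cell group (CPM). The 8 endothelial markers summed to 337 CPM in the non-traced ependymal-like cells and to 1.95 CPM in the traced ones. At least 2 of 4 endothelial markers were present in 487 of the 1161 non-traced cells (41.9%, interval 39.1 to 44.8) and in 1 of the 4652 traced cells. A further 714 non-traced droplets with endothelial and ependymal markers side by side were left out. The 2 libraries shared 42 cell barcodes, of which 1 non-traced and 40 traced cells were ependymal-like, and without them the Zic1 difference between libraries was −1.50 and that of Pax6 0.47. Intervals of levels, shares and ratios are exact 95% intervals, those of log2 differences are combined from them, and, like the limits given for counts of 0, they cover counting error only.

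Of the 9 genes, 8 had counts in at least 1 library. Shh (GRCm38 chromosome 5, positions 28456815 to 28467256) had no row in either table used here and was not analysed here. Olig2 had no row in the traced table. That table lists 717 genes found in exactly 3 cells and 20 found in fewer, so a gene without a row may have had a few counts, and no traced value of Olig2 is given. In the GENCODE M21 annotation the other genes are Foxa2 (chromosome 2, 148042877 to 148046969, minus strand), Pax6 (chromosome 2, 105668900 to 105697364, plus strand), Nkx6-1 (chromosome 5, 101658139 to 101664996, minus strand), Nkx6-2 (chromosome 7, 139579376 to 139582797, minus strand), Msx1 (chromosome 5, 37820485 to 37824583, minus strand), Zic1 (chromosome 9, 91358058 to 91365810, minus strand), Irx3 (chromosome 8, 91798525 to 91802067, minus strand) and Olig2 (chromosome 16, 91225457 to 91228677, plus strand). The 250 bases before 1 start each of Pax6 and Foxa2 are shown because Pax6 was lower and Foxa2 higher with Ucma. Foxa2 rested on 5 UMIs in the Ucma cells of each library. Both genes have further starts in the same source, whose windows are not shown. They come from RefSeq on GRCm38.p6 and are written 5′ to 3′ on the strand of the gene, Pax6 at chr2:105668646-105668895 on the plus strand and Foxa2 at chr2:148046970-148047219 on the minus strand.
Pax6: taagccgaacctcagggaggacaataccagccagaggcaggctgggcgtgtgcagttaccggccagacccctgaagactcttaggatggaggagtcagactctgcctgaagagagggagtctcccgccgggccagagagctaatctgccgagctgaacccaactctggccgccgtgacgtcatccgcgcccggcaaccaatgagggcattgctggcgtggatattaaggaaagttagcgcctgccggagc
Foxa2: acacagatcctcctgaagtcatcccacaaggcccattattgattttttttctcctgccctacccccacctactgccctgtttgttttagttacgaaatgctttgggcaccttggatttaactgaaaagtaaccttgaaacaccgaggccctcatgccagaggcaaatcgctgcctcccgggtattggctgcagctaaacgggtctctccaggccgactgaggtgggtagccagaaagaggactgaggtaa

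Each window was searched on both strands for a homeodomain core (TAATTA), a forkhead core (TGTTTAC, or GTAAACA on the other strand) and a core bound by the GLI factors of hedgehog signalling (TGGGTGGTC, or GACCACCCA). None of the 3 was found in either window, so no base is in capitals. Among 32851 windows of the same length, 4.84% held the homeodomain core, 3.17% the forkhead core and 0.225% the GLI core. The absence of these letters says nothing about whether a factor binds there.

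The first question was at which level each gene stood in ependymal-like cells of the 2 libraries. Nkx6-1, a homeodomain factor of the ventral domains, stood at 250 CPM (239 to 260) among non-traced and 241 CPM (236 to 245) among traced cells. It had a UMI in 75.5% of the non-traced and 82.1% of the traced cells, and in 0.602% of the non-traced endothelial-like cells, which should lack it and had a median of 6799 UMIs against 7062 and 8572 in the ependymal-like cells. After each cell was thinned to 3000 UMIs, which left out 34 shallower cells in each library, the shares were 48.8% (45.9 to 51.8), 49.9% (48.4 to 51.3) and 0.221%. A typical cell held few molecules of it: 324 non-traced cells had 1 UMI, 232 had 2, 266 had 3 to 5 and 54 had 6 or more, with a highest count of 16. Traced minus non-traced was −0.05 on the log2(CPM + 1) scale, with an interval of −0.12 to 0.02, so their Nkx6-1 levels lay within counting error of each other. Nkx6-1 was not confined to the ependymal-like cells. The pericyte-like cells of the non-traced library held it at 43.0 CPM (33.2 to 54.7), in 16.1% of 285 cells. The 65 traced endothelial-like cells held it at 55.2 CPM (38.9 to 76.1), in 21.5% of them. Its source in these cells was not tested.

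Nkx6-2, the close relative of Nkx6-1 with a partly shared role, was at or near 0. It had 1 UMI in the 1161 non-traced cells and 18 UMIs in 15 of the 4652 traced cells, or 0.116 CPM (0.00293 to 0.645) and 0.4 CPM (0.237 to 0.632). The non-traced endothelial-like cells held it at 0.101 CPM, inside the interval of the non-traced ependymal-like cells and below that of the traced ones. Of the 15 traced cells with Nkx6-2, 11 also had Pax6 and none had Ucma. Pax6 was found in 73.3% of the traced cells with and 70.8% of those without Nkx6-2. Ucma was found in 5.16% of all traced ependymal-like cells, so neither count stands apart. The Nkx6-2 ratio of traced over non-traced cells was 3.46, with a counting interval of 0.546 to 144.

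Foxa2, the forkhead factor of the floor plate, had 5 UMIs in 4 of the 1161 non-traced cells and 7 UMIs in 6 of the 4652 traced cells. These gave 0.578 CPM (0.188 to 1.35) and 0.155 CPM (0.0625 to 0.32), against 0.00723 CPM in the endothelial-like cells, where 1 UMI was found in 15953 cells. All 4 non-traced and 4 of the 6 traced Foxa2 cells also had Ucma. Olig2, which drives motor neuron and oligodendrocyte fates, had 0 UMIs in the non-traced ependymal-like cells, with an exact upper bound of 0.427 CPM, and was not listed in the traced table. It had 102 UMIs in 57 non-traced cells outside the ependymal-like class, 48 of which carried at least 2 endothelial markers.

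Pax6, a paired-domain factor of the intermediate domains, stood at 119 CPM (112 to 127) among non-traced and 167 CPM (163 to 171) among traced cells. It was found in 42.9% and 70.8% of the cells, or in 25.6% (23.1 to 28.3) and 37.4% (36.0 to 38.9) after thinning, and in 0.1% of the endothelial-like cells. Traced cells were 1.4 times as high (1.31 to 1.49), a log2 difference of 0.48 (0.39 to 0.58) that lay outside counting error. Irx3, an Iroquois homeodomain factor that limits the dorsal reach of the motor neuron domain, stood at 62.7 CPM (57.5 to 68.2) among non-traced and 81.5 CPM (78.9 to 84.2) among traced cells. Its thinned shares were 14.5% (12.5 to 16.7) and 20.5% (19.3 to 21.7), its unthinned shares 32.1% and 48.7%, with 0.864% thinned and 2.19% unthinned in endothelial-like cells. Its log2 difference was 0.37 (0.24 to 0.50), in the same direction as that of Pax6.

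The 2 dorsal genes were lower. Msx1, a homeodomain target of BMP signalling, stood at 22.1 CPM (19.1 to 25.5) among non-traced and 18.8 CPM (17.5 to 20.1) among traced ependymal-like cells, but at 37.6 CPM (36.6 to 38.6) in the non-traced endothelial-like cells. Its thinned shares were 4.88% and 5.05%, against 9.25% of the endothelial-like cells. Since 403 of the endothelial-like cells held 3 or more Msx1 UMIs, they give no background level for this gene. The pericyte-like cells of the non-traced library held it at 5.21 CPM, with a thinned share of 1.28% (0.264 to 3.69). In the traced cells, where the endothelial markers were nearly absent, Msx1 still stood at 18.8 CPM, and the part of endothelial RNA in the non-traced value was not tested. The log2 difference of −0.22 (−0.44 to −0.0022) became −0.11 without the cells carrying 2 or more endothelial markers. Zic1, a zinc finger factor of the dorsal neural tube, had 40 UMIs in 16 non-traced cells and 44 UMIs in 17 traced cells, at 4.63 CPM (3.31 to 6.3) and 0.977 CPM (0.71 to 1.31). The shares of cells with a UMI, 1.38% and 0.365% (0.976% and 0.152% thinned), compare with 1.23% (0.454% thinned) in the endothelial-like cells, none of which held more than 2 Zic1 UMIs.

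Zic1 was the only one of the 5 members with at least 1 CPM in either library that passed a 2-fold difference. Zic1 reached 1 CPM only in the non-traced cells and was at 0.977 CPM in the traced ones, so it could enter the comparison only as a lower gene. It was 4.74 times as high in the non-traced cells (3.01 to 7.44), a log2 difference of −1.51 (−1.94 to −1.06) for traced minus non-traced. Among 14812 genes at 1 CPM or more, 3.34% passed 2-fold in the lower direction and 0.736% in the higher one, and with 5 genes a count of 1 lower and 0 higher is too few to be set against that background. Its UMIs were packed into few cells, 7 non-traced and 7 traced cells holding 3 or more, with up to 8 in a cell. Of the 16 non-traced Zic1 cells 8 also had at least 2 endothelial markers and 3 had at least 2 pericyte markers, while none of the 17 traced ones had either. The pericyte-like cells of the non-traced library, whose mural genes include Pdgfrb and Vtn, held Zic1 at 261 CPM (236 to 288) and in 65.6% of 285 cells. Their part in the difference was not tested, and it was −1.22 without the cells carrying 2 or more endothelial markers.

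**Figure D1:**
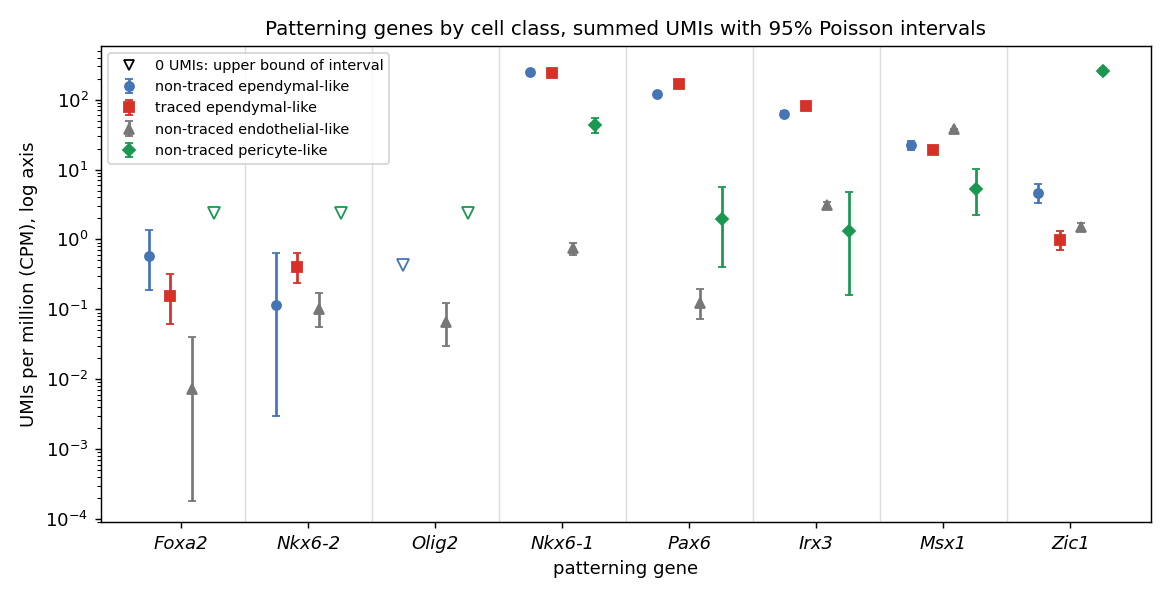
Summed CPM (log axis) of the 8 genes with counts, with exact 95% Poisson intervals, in non-traced ependymal-like (1161 cells), traced ependymal-like (4652), non-traced endothelial-like (15953) and non-traced pericyte-like cells (285), with open triangles at the upper bound where 0 UMIs were found and no point for Olig2 in traced cells, where it was not listed. Nkx6-1, Pax6 and Irx3 stood in both libraries well above the non-traced endothelial-like cells, and Msx1 stood below them. Zic1 was highest in the pericyte-like cells at 261 CPM, which also held Nkx6-1 at 43.0 CPM.

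The second question was how the genes stood in cells with and without Ucma. At least 1 Ucma UMI was present in 306 of the 1161 non-traced ependymal-like cells (26.4%, interval 23.8 to 29.0) and in 240 of the 4652 traced ones (5.16%, interval 4.54 to 5.83), against 0.107% of the endothelial-like cells. Cells with and without Ucma had similar depths, with medians of 7113 and 7036 UMIs in the non-traced and 9090 and 8555 UMIs in the traced library. Of the 9 genes, 6 reached 1 CPM in either cell group in each library.

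Pax6 was lower in Ucma cells in both libraries. In the non-traced library it was at 154 CPM (144 to 164) without Ucma and 24.0 CPM (18.1 to 31.2) with Ucma, 6.4 times lower (4.88 to 8.56). In the traced library it was at 172 CPM (168 to 176) and 82.5 CPM (71.8 to 94.3), 2.09 times lower (1.82 to 2.4). The thinned shares of cells with Pax6 were 33.3% (30.1 to 36.6) without and 4.38% (2.35 to 7.37) with Ucma in the non-traced library, and 38.5% (37.0 to 39.9) and 18.5% (13.8 to 24.0) in the traced library. The unthinned shares were 55.3% and 8.17%, and 72.6% and 37.5%. The groups did not overlap within counting error in either library.

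Irx3 was also lower in Ucma cells, by less. It was at 73.3 CPM (66.8 to 80.3) without and 33.2 CPM (26.1 to 41.5) with Ucma in the non-traced library, a log2 difference of −1.12 (−1.48 to −0.78). In the traced library it was at 83.7 CPM (81.0 to 86.5) and 45.3 CPM (37.5 to 54.2), a log2 difference of −0.87 (−1.14 to −0.61) that did not reach 2-fold. Its thinned shares were 16.3% and 9.43% in non-traced, and 20.9% and 13.0% in traced cells. Nkx6-1 differed by less than its counting error, at 243 CPM without and 267 CPM with Ucma in non-traced cells (log2 difference 0.13, −0.01 to 0.27) and at 240 CPM and 247 CPM in traced cells (0.04, −0.08 to 0.15).

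Foxa2 was higher in Ucma cells. All 5 non-traced UMIs lay in the 306 cells with Ucma, at 2.18 CPM (0.708 to 5.09), and 0 lay in the 855 cells without it, which makes Foxa2 at least 4.62-fold higher against a floor of 3 counts over those cells. In the traced library 5 UMIs lay in the 240 Ucma cells and 2 in the 4412 others, a ratio of 40.7 with a counting interval of 6.66 to 427. Foxa2 reached 1 CPM only in the Ucma cells, so it could enter the comparison only as a higher gene. Msx1 was at 22.5 CPM and 20.9 CPM without and with Ucma in non-traced cells (log2 difference −0.10, −0.57 to 0.36) and at 19.2 CPM and 11.1 CPM in traced cells (−0.74, −1.27 to −0.24). Zic1 rested on 17 and 23 UMIs in the non-traced and on 7 and 37 UMIs in the traced library, the 7 all from a single cell, and its log2 differences of 0.87 and 0.98 both turned negative (−1.03 in the non-traced library) when Ucma was read from thinned cells.

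By a 2-fold threshold, Pax6 and Irx3 were lower with Ucma in the non-traced library and Pax6 in the traced library. Foxa2 also passed, as a higher gene, but it and, in the traced library, Zic1 reached 1 CPM only through the Ucma cells, so no count of higher members is read. The background over all genes at 1 CPM or more was 3.19% higher and 4.01% lower among 15046 genes in the non-traced library, and 2.6% higher and 1.46% lower among 14703 genes in the traced library. With a stricter split, at least 3 Ucma UMIs against none, Pax6 stood at −4.37 and −2.84, Irx3 passed in both libraries (−1.87 and −1.89) and Msx1 in the traced one (−1.51).

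The levels of Pax6 and Irx3 also went down with the number of Ucma UMIs in a cell. Pax6 in the non-traced library was at 154 CPM in cells with no Ucma UMI, 47.8 CPM (34.2 to 65.1) with 1, 16.4 CPM (8.49 to 28.7) with 2 to 4 and 4.14 CPM (0.854 to 12.1) with 5 or more. In the traced library the same steps were 172, 118 (100.5 to 137), 59.7 (43.2 to 80.4) and 12.6 CPM (4.63 to 27.5). Irx3 stepped through 73.3, 50.2, 32.8 and 13.8 CPM in non-traced and 83.7, 57.4, 38.9 and 18.9 CPM in traced cells. Nkx6-1 stayed between 243 and 279 CPM over the 4 bins of the non-traced library and between 240 and 265 CPM over those of the traced one. The last bins held 84 non-traced and 40 traced cells, and Pax6 there rested on 3 and 6 UMIs.

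**Figure D2:**
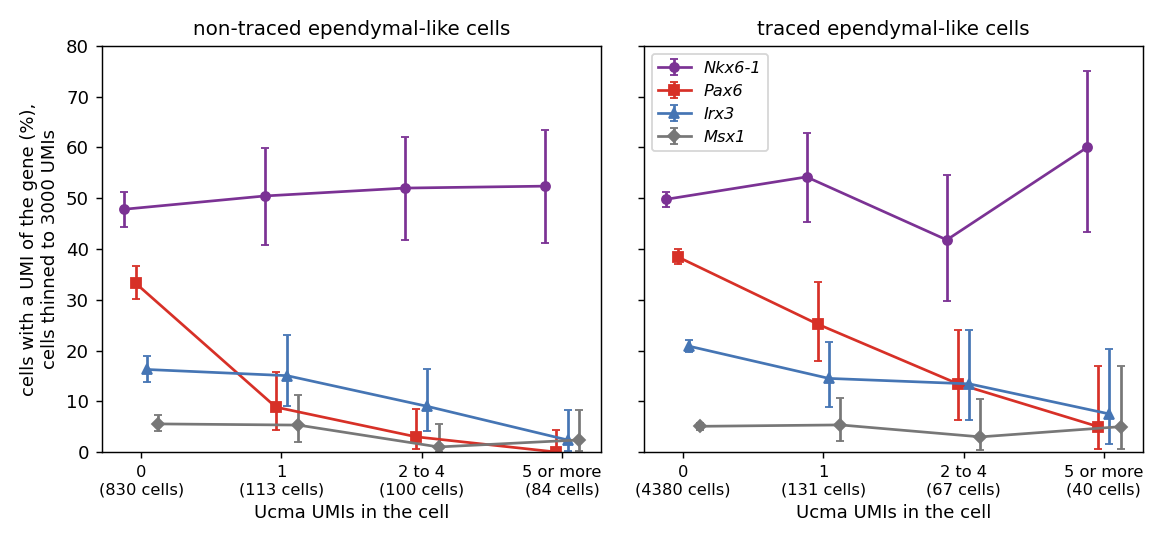
Percent of ependymal-like cells with a UMI of Nkx6-1, Pax6, Irx3 and Msx1 after thinning to 3000 UMIs, against the Ucma UMIs in the cell, for the non-traced (left) and traced library (right), with exact 95% binomial intervals and the number of cells under each bin. Pax6 went from 33.3% to 0% in the non-traced and from 38.5% to 5% in the traced library, while the Nkx6-1 intervals overlapped across all bins.

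Since Ucma UMIs were also found in a few endothelial-like cells, the ependymal-like cells were divided by cluster as well. One ependymal-like cluster, with Ucma, Clec3b and Cntn1 among its leading genes, held 374 non-traced and 196 traced cells, of which 259 and 133 had a Ucma UMI. Neither Ucma nor the 9 genes had been used to form it, but other genes of the same cells had, so the values are a description. Inside the cluster Pax6 was at 5.18 CPM (2.48 to 9.52) in cells with and 1.32 CPM (0.0335 to 7.37) in cells without a Ucma UMI in the non-traced library, and at 17.8 CPM (11.5 to 26.2) and 6.89 CPM (1.88 to 17.6) in the traced library. Outside it, Pax6 was at 125 CPM (91.0 to 167) in the 47 non-traced cells with Ucma and 174 CPM (163 to 185) in the 740 without, and at 158 CPM (137 to 183) in the 107 traced cells with Ucma and 174 CPM (170 to 178) in the 4349 without. Pax6 was thus low throughout the cluster, whether or not a Ucma UMI had been caught.

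Irx3 showed the same split in part. It was at 38.4 CPM (25.7 to 55.1) and 25.4 CPM (18.8 to 33.5) in the cluster without and with Ucma in the non-traced library, and at 29.3 CPM (17.1 to 46.9) and 34.1 CPM (25.2 to 45.3) in the traced library. Outside it was at 78.1 and 74.9 CPM among non-traced and 84.5 and 58.3 CPM among traced cells, again without and with Ucma. Nkx6-1 lay between 234 and 267 CPM in all 8 groups, with intervals that overlapped. All 5 Foxa2 UMIs of the non-traced and 6 of the 7 of the traced library were inside the cluster.

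**Figure D3:**
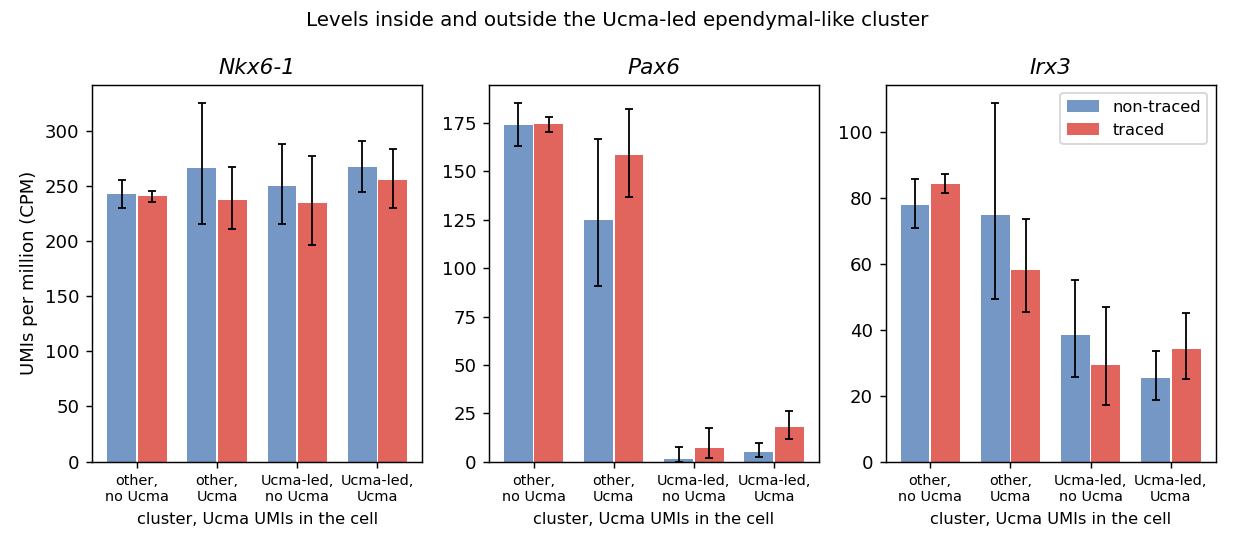
CPM of Nkx6-1, Pax6 and Irx3 in ependymal-like cells outside (other) and inside the Ucma-led cluster, without and with a Ucma UMI, in non-traced (blue) and traced cells (red), with exact 95% Poisson intervals. The 4 Pax6 bars inside the cluster lie between 1.32 and 17.8 CPM and the 4 outside between 125 and 174 CPM, while the Nkx6-1 bars are all between 234 and 267 CPM.

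The difference between libraries was then read within each kind of cell, since the share of Ucma cells differed between them. Among cells without Ucma, Pax6 stood at 154 CPM against 172 CPM in the traced library, a log2 difference of 0.16 (0.07 to 0.26) against 0.48 over all ependymal-like cells. Irx3 differed by 0.19 (0.05 to 0.33) against 0.37, and Nkx6-1 by −0.02 (−0.09 to 0.06). Among cells with Ucma, Pax6 was 3.44 times as high in traced cells (2.55 to 4.71), with 215 against 55 UMIs. Of these UMIs 190 and 45 came from cells outside the Ucma-led cluster, which were 107 of the 240 traced and 47 of the 306 non-traced cells with Ucma and held Pax6 at 158 and 125 CPM. The Ucma level of the traced cells with Ucma was lower too, at 272 CPM against 503 CPM in the non-traced library. Outside the Ucma-led cluster and without Ucma, Pax6 was at 174 CPM in both libraries.

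Across clusters of the traced library, Pax6 ranged from 125 CPM (114 to 136) in a cluster of 386 cells to 218 CPM (210 to 227) in a cluster of 1374 cells, and was at 14.6 CPM (9.78 to 21.0) in the Ucma-led one. Nkx6-1 ranged from 168 CPM (147 to 190) in 171 cells to 277 CPM (267 to 286) in the cluster of 1374. Irx3 was lowest in the Ucma-led cluster at 32.7 CPM (25.2 to 41.7) and highest at 106 CPM (96.2 to 116) in the cluster of 386 cells. The cluster with the highest Irx3 was therefore the one with the lowest Pax6 outside the Ucma-led cells. Zic1 had 10 of the 44 traced UMIs in the cluster of 171 cells and 17 in the Ucma-led one.

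The 3 most widely found genes were then read together in single cells. After thinning, Nkx6-1, Pax6 and Irx3 were found together in 27 of 1127 non-traced cells (2.4%, interval 1.58 to 3.47) and in 169 of 4618 traced cells (3.66%, interval 3.14 to 4.24). None of the 3 was found in 34.3% of the non-traced and 24.9% of the traced cells. Without thinning, all 3 were found in 14.6% of the non-traced and 30.8% of the traced cells, and none in 11.7% and 3.78%. These shares thus depend strongly on depth, and a gene that was not found may still have been present. The shares that follow are of thinned cells. Nkx6-1 was found, with the other 2 not detected, in 44.1% (38.4 to 49.96) of the non-traced cells with Ucma and 26.0% (23.1 to 29.2) of those without. In the traced library these shares were 36.1% (30.0 to 42.6) and 24.3% (23.0 to 25.6). They include the lower detection of Pax6 and Irx3 in Ucma cells given above and are no separate result. The share of traced cells with Pax6 was 37.4% among cells with and 37.5% among cells without Nkx6-1. In the non-traced library, Irx3 was found in 20.1% (15.6 to 25.2) of cells with Pax6 and 12.5% (10.4 to 15.0) of cells without it, and in the traced library in 20.5% of both.

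The genes whose pattern over single cells was most like that of a member were read from Pearson's r of log-normalised UMIs over the 1161 and 4652 ependymal-like cells, among 13273 genes. The cells share a library and r in sparse counts is weak, so these are descriptions. Pax6 was most like Pcp4, a calmodulin-binding peptide gene (r = 0.43 in non-traced and 0.21 in traced cells), Lin7a (0.22 and 0.16) and the metallothionein gene Mt2 (0.31 and 0.15), and among the genes it went most against were Ucma (−0.37 and −0.17) and Vtn (−0.24 and −0.15). Nkx6-1 was most like the immediate early genes Fos (0.17 and 0.15) and Egr1 (0.15 and 0.15) and the early response gene Btg2 (0.14 and 0.14). Irx3 was most like Fos (0.12 and 0.12), Btg2 (0.12 and 0.11) and Irx5, its neighbour in the Iroquois B cluster (0.12 and 0.11), and went against Gm42418, a transcript model over ribosomal RNA (−0.12 and −0.13). Zic1 was most like Pla2g7 (0.33 and 0.42), Cpe (0.49 and 0.30) and Zfhx4 (0.20 and 0.18), on the 16 and 17 cells that held it. No gene reached 0.1 in both libraries for Msx1.

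Other genes of the same developmental axis were read from lists. These lists and those below were written with earlier results of these data known. Their counts and medians are therefore descriptions and no independent support. Over all genes at 1 CPM or more, 3.19% were at least 2-fold higher and 4.01% lower with Ucma in the non-traced library, and 2.6% and 1.46% in the traced one. Among 10 ventral factors, 5 reached 1 CPM in the non-traced Ucma comparison, all of them also in cells without Ucma, and 4 were at least 2-fold higher with Ucma, with a median of 2.45 on the log2 scale against 0.01 over all genes. Of 6 that reached 1 CPM in the traced library, 5 did so only through the Ucma cells, so that they could enter only as higher genes. Among those higher in both were Foxa1, the forkhead relative of Foxa2, Lmx1b and Foxp2. Foxa1 was at 3.62 and 29.7 CPM in non-traced and at 0.377 and 15.7 CPM in traced cells. Of 9 genes for floor plate guidance and matrix proteins, 5 reached 1 CPM and 4 were higher with Ucma in both libraries: Ntn1, which encodes the axon guidance protein netrin 1, Slit2, which encodes a midline repellent, Sulf1, which trims heparan sulfate, and the adhesion gene Alcam. Slit2 and Sulf1 reached 1 CPM only in the Ucma cells of the traced library. Slit2 was at 4.09 and 41.9 CPM among non-traced and 0.707 and 32.6 CPM among traced cells without and with Ucma.

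Of 24 intermediate and dorsal factors, 10 reached 1 CPM in the non-traced and 7 in the traced comparison. In the non-traced one 4 were higher and 3 lower, beside 3.19% and 4.01% over all genes. In the traced one 3 were higher and 2 lower, beside 2.6% and 1.46%. In each library 2 of the higher ones reached 1 CPM only in the Ucma cells. Zic5, lower in the non-traced library, reached it only in the cells without Ucma. Irx1 and Irx2 were higher with Ucma in both libraries, whereas Irx5 was lower. In the traced library Irx1 reached 1 CPM only in the Ucma cells, so it could enter there only as a higher gene. Irx5 was at 111 CPM without Ucma in both libraries and at 21.4 CPM with it in non-traced and 49.1 CPM in traced cells, while Irx2 went from 10.2 to 35.8 CPM and from 2.003 to 22.6 CPM. Iroquois genes thus differed both ways, Irx3 and Irx5 being lower with Ucma and Irx2 higher, as was Irx1 with the limit given for the traced library. Zeb1, a zinc finger factor of neural progenitors, was at 37.6 CPM among non-traced and 39.6 CPM among traced ependymal-like cells and differed by less than 2-fold with Ucma.

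The signalling genes were read from short lists, beside shares over all genes of 3.19% higher and 4.01% lower with Ucma in the non-traced and 2.6% and 1.46% in the traced library. The counts are too small to be set against these shares. Of 14 hedgehog pathway genes 10 reached 1 CPM in each library, with 0 higher and 1 lower in the non-traced and 2 higher and 1 lower in the traced one. The lower one was Gli2, a transcriptional effector (4.25 and 0.873 CPM among non-traced, 4.64 and 1.15 CPM among traced cells, without and with Ucma). In the non-traced library Gli2 reached 1 CPM only in the cells without Ucma, so it could enter there only as a lower gene. Of the 2 higher ones, Gli3 reached 1 CPM only in the traced Ucma cells. The other, Cdon, a co-receptor gene, was at 15.6 and 30.1 CPM among non-traced and 10.5 and 26.9 CPM among traced cells, with log2 differences of 0.91 (0.47 to 1.34) and 1.28 (0.91 to 1.63) whose intervals overlap. The receptor genes Ptch1 and Smo were at 55.3 and 63.5 CPM among non-traced and 61.8 and 53.7 CPM among traced cells and did not pass 2-fold in any of the 3 comparisons. Of 17 BMP pathway genes 10 reached 1 CPM in each library. Past 2-fold were Bmp6, on 3 and 4 UMIs in the Ucma cells, and Smad9 in the non-traced library, and both reached 1 CPM only in the cell group where they were high, so their directions are not read. Of 9 roof plate Wnt and R-spondin genes none passed 2-fold, and the highest, Wnt4, was at 10.1 and 20.1 CPM without and with Ucma in non-traced cells. Between libraries, 0 of 10 hedgehog and 0 of 9 BMP genes at 1 CPM passed 2-fold, while Foxa1, Lmx1b, Slit2 and Sulf1 were lower in the traced cells. Among cells without Ucma, Foxa1 was at 3.62 CPM in the non-traced and 0.377 CPM in the traced library, and Lmx1b at 1.26 and 0.189 CPM. Of these cells, 115 of the 855 non-traced and 63 of the 4412 traced ones lay in the Ucma-led cluster. The split by Ucma UMIs therefore did not make the 2 libraries alike, and the part of these cells was not tested.

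**Figure D4:**
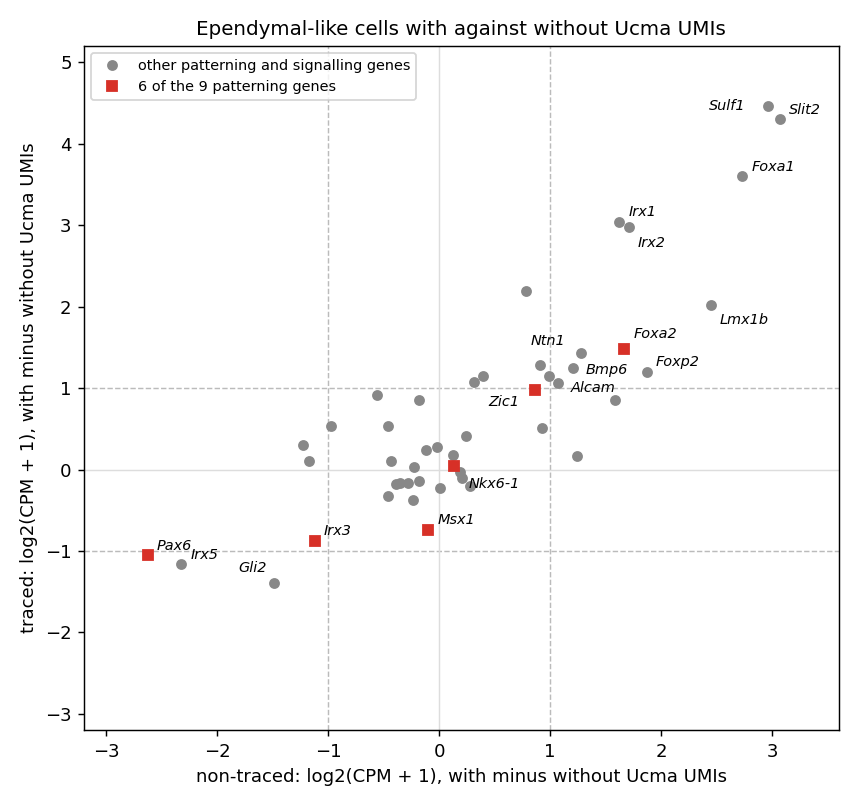
Difference in log2(CPM + 1) between ependymal-like cells with and without Ucma UMIs in the non-traced (x axis) and traced library (y axis), for 6 of the 9 genes (red squares) and other patterning and signalling genes (grey circles), 48 genes in all out of those that reached 1 CPM in either library, with dashed lines at 2-fold. Sulf1, Slit2 and Foxa1 are at the upper right, Pax6 at the lower left with −2.63 and −1.05, and Nkx6-1 near the centre.

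Over the 3633 genes that reached 50 CPM in cells with or without Ucma in both libraries, Pax6 was 10th and Irx5 8th of those lowest with Ucma, ranked by the smaller of the 2 differences, after Stmn2, Lin7a, Rgs4, Agr3, BC051019, Ly6h and Pcp4 and with Kcnk1 between them. The highest with Ucma were Vtn, Sdpr, the lipid carrier gene Apoe, Ccdc3, Kbtbd11, Cntn1, Prr7, 1700012P22Rik, Clec3b and Ccdc121. Vtn, which is also a pericyte marker, was at 17.8 and 197 CPM without and with Ucma in non-traced and at 0.754 and 87.5 CPM in traced cells. The 7 pericyte markers summed to 93.2 and 327 CPM among non-traced and 27.4 and 156 CPM among traced cells, all 7 being higher with Ucma in the non-traced library. Kcnj8 went from 0.944 to 3.49 CPM there, Abcc9 from 1.26 to 2.62 CPM and Rgs5 from 23.9 to 50.2 CPM. Kcnj8 and Abcc9 were at 0 UMIs in both cell groups of the traced library, where Rgs5 and Cspg4 rested on at most 4 UMIs, Pdgfrb was at 0.0943 and 0.767 CPM on 4 and 2 UMIs, and Myl9 was at 26.4 and 67.1 CPM. The part of these markers in the differences with Ucma was not tested. Endothelial markers summed to 321 CPM without and 383 CPM with Ucma in non-traced, and to 1.91 and 2.69 CPM in traced cells. The Pax6 difference with Ucma was −2.80 without the non-traced cells carrying 2 or more endothelial markers, against −2.63 with them.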

How the data were processed

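Single-cell RNA-seq counts from 1 library of CD133+ DNGR-1 traced and 1 of CD133+ non-traced spinal cord cells were analysed. The deposited values were UMI counts per gene and cell; per the submitters' processing notes they were made with Cell Ranger 3.0.2 and STAR 2.5.1b on mm10, and the authors added the tdTomato-WPRE sequence to the reference. The study's stated cell filter (at least 50 genes, at most 10% mitochondrial) was not applied again. Cells were integrated and clustered in Seurat 5.3.0 (R 4.3.3) on 2000 variable genes, leaving out the 9 patterning genes, Ucma and tdTomato-WPRE, with 20 components and a resolution of 0.8. The cells of each library in a cluster were named when at least 3 markers of a class were found in 50% of them, and were called mixed where a second class reached 70% of its markers in the same way. Cells were left unnamed where markers of another class outnumbered their own among the 10 leading genes, or where UMIs were low and none of their own led. No doublet caller was run, and mixed droplets and unnamed cells were left out. Unnamed were 5269 non-traced and 89 traced cells. The 89 traced cells had 9 of 10 ependymal markers in at least 50% of cells, with Mki67 and Top2a among their leading genes.

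Counts were summed over cells and written as CPM, with exact Poisson or binomial intervals at 95%. Differences were taken on log2(CPM + 1) among genes with at least 1 CPM in either group, which understates the change of low genes, and 2-fold was the threshold. Shares were also read after thinning to 3000 UMIs. With 1 library per group, and cells not being replicates, no test was run and no p-value is given. Genes outside the 9 were named where they passed 2-fold in the same direction with Ucma in both libraries, were among the 3 highest of their list or the 10 most different of all genes, or were most correlated with a member; those most opposed to a member were added after their values were seen. Some of these genes are not reported here, though counts over their lists include them. The 9 genes and the lists were chosen with earlier results of these data known. TMM factors came from edgeR 4.0.16. Scripts ran in Python 3.11.15 and were tested on simulated data.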

Additional observations from a re-analysis of the deposited data

How the results depend on the processing

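No paired analysis was possible because each group was 1 library and no test was run. Of the members' log2 differences under the alternatives, 200 stayed within their counting interval, 30 moved and 0 of the called ones turned sign. Pax6 was past 2-fold lower with Ucma under all 12 settings in each library (−5.08 to −2.37 and −3.49 to −1.05), Irx3 under 11 of 12 in the non-traced and 3 of 12 in the traced library, and Zic1 between libraries under all 9 (−2.13 to −1.22). In the main setting Zic1 reached 1 CPM only in the non-traced cells. Ependymal-like cells were 5.76% of the non-traced and 92.6% of the traced library with whole clusters, 2.65% of the non-traced library without cells carrying endothelial markers, and 98.7% of the traced library with no integration. Between libraries, the 109 higher genes became 166 with no integration, 169 with whole clusters, 193 without cells carrying endothelial markers and 290 with a pseudocount of 0.1, and the 494 lower genes became 1182 with whole clusters and 796 with that pseudocount. With Ucma in the non-traced library, the 480 higher genes became 740 without cells carrying endothelial markers, 921 with the pseudocount and 836 for 3 or more Ucma UMIs, and the 603 lower genes became 1000, 1004 and 1188, and 1230 with whole clusters. In the traced library, the 383 higher genes became 821 with the pseudocount, 1114 for 3 or more Ucma UMIs, 717 with Ucma read from thinned cells and 675 for the Ucma-led cluster, and the 214 lower genes became 502, 1265, 801 and 567. The members lower with Ucma in the non-traced library were 1 rather than 2 with whole clusters and 3 with Ucma read from thinned cells, where Zic1 was added (−1.03), and those higher were 2 rather than 1 without cells carrying endothelial markers, with the pseudocount and for the cluster. In the traced library the members higher were 2 rather than 1 with whole clusters, the pseudocount, the mean over cells and the cluster, and those lower were 3 rather than 1 for 3 or more Ucma UMIs, for thinned Ucma and for the cluster. The cause was not tested. The split by the Ucma-led cluster and the removal of shared barcodes were chosen after seeing the data. Depth limits Foxa2, Nkx6-2, Zic1 and Olig2, which rest on 0 to 44 UMIs in a library.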
